A study of Capra hircus with 25 samples.

Results

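Liver microRNAs (miRNAs) of goat kids were compared between 8 weeks and 4 weeks of age, with 5 libraries at each age. The animals were Capra hircus of the Laiwu black breed, a domestic goat, and the study also covered 1 day, 2 weeks and 12 weeks, for 25 libraries in all. The labels give no treatment, genotype or sex, so the kids of both groups are described by breed, tissue and age alone, and nothing says whether each library is a kid of its own. The p-values therefore speak only of library-to-library spread, part of which may be technical. The miRNAs compared were those at 1 RPM (the reads of a miRNA per 1000000 reads of its library) or more in at least 5 of the 10 libraries. This kept 376 of 463 entries of the table, 358 with goat names (prefix chi-, dropped below) and 18 with sheep names (prefix oar-, kept below). Of the 376, 336 passed in all 10 libraries. The 4 entries just inside the limit, miR-103-5p, miR-10b-3p, miR-217-5p and miR-2331, had means of 0.768 to 2.14 RPM, and the 8 entries just outside it had means of 0.604 to 3.13 RPM.

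A miRNA is a short RNA that is cut from a hairpin precursor, is loaded into an Argonaute protein and represses messenger RNAs that match its seed, the bases near its 5′ end. Each hairpin can yield a 5p and a 3p miRNA from its 2 arms, often in very unequal amounts. Many miRNA genes stand in clusters that are transcribed together, and miRNAs that share a seed form a family. In liver, miR-122 is the hallmark miRNA of hepatocytes, while other miRNAs are known mainly from stellate, endothelial, biliary or blood cells. A bulk library mixes all of these, so fewer cells of a type and less miRNA per cell cannot be told apart. In a ruminant kid the interval covers part of the change from milk towards solid feed, though the labels do not say how these kids were fed.

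Each library rests on 8262447 to 10828554 miRNA reads, so that a miRNA with no read is limited to below 0.277 to 0.363 RPM, for counting error only. The 5 libraries of week 4 were not alike. In a principal component analysis of the 376 miRNAs, 42.9% of the variance fell on the first component, where week 4 replicates 3, 4 and 5 lay at −8.48, −7.89 and −5.02, against 1.75 to 6.68 for the 5 libraries of week 8. Week 4 replicate 2 lay at 4.48, inside the range of week 8, and replicate 1 at 0.32, between that range and the other week 4 libraries. Both were nearer to the week 8 libraries (mean distances 10.5 and 10.2) than to the other week 4 libraries (10.8 and 12.7). In week 4 replicate 2, miR-143-3p, best known from smooth muscle, was the most abundant miRNA at 247260 RPM. In the other 4 libraries of week 4 it lay between 89358 and 103192 RPM, and miR-122 was the most abundant miRNA in all 9 other libraries. The standard deviation was larger at week 4 for 228 of the 376 miRNAs (60.6%). Whether week 4 replicates 1 and 2, which lay nearer to week 8, carry the right age label was not tested, which limits every week 4 value below. Where leaving both out gave a miRNA singled out below a call, its value without them stands beside it. For the others that value is mostly not shown, and some of those changes became smaller. Over all miRNAs the median log2 change without them was −0.29, against −0.15 with all 10 libraries. The 2 libraries were singled out because they stood apart, so counts without them are a description and not independent support.

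**Figure D1:**
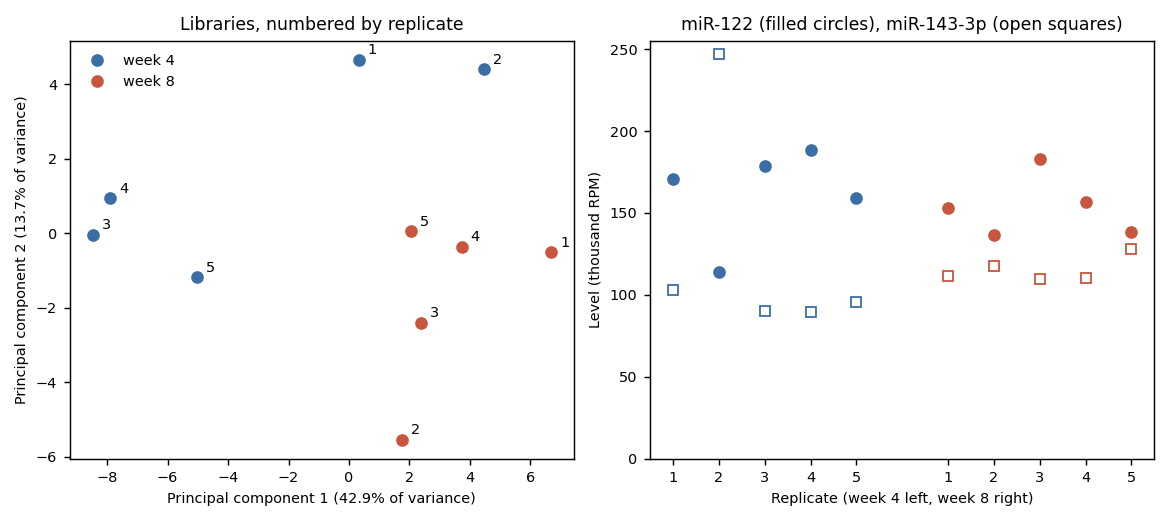
Left, the 10 libraries on the first 2 principal components of log2(RPM + 1) over 376 miRNAs, with week 4 in blue, week 8 in red and numbers giving the replicate. Right, the level (axis in units of 1000 RPM) of miR-122 (filled circles) and miR-143-3p (open squares) in each library. Week 4 replicates 1 and 2 lie apart from replicates 3 to 5, and replicate 2 alone has more miR-143-3p than miR-122.

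Few miRNAs passed the test between 4 and 8 weeks. In limma on log2(RPM + 1) over the 10 libraries, 3 of 376 miRNAs (0.798%) were called, at an adjusted p (Benjamini-Hochberg) under 0.05. miR-29b-3p, a member of a family that represses collagen and other matrix messages, rose 1.99-fold. The sheep-named oar-miR-431 and miR-411b-5p, both from the imprinted DLK1-DIO3 cluster, fell by 1.49 and 1.01 on the log2 scale (2 lower, 0.532%, against 1 higher, 0.266%). At an unadjusted p under 0.05 stood 97 miRNAs (25.8%), 74 of them lower at week 8 (19.7%) and 23 higher (6.12%). For 21 miRNAs (5.59%) the 2 ages had separate ranges, with 14 of them lower (3.72%) and 7 higher (1.86%) at week 8.

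How many miRNAs were called depended on the scaling and on the 2 libraries that stood apart. Scaling by the median ratio over miRNAs, which sets the typical miRNA equal between libraries, called 15 higher (3.99%) and 8 lower (2.13%) in place of 1 and 2. That scaling moved the median log2 change of all miRNAs from −0.15 to −0.003. Without week 4 replicates 1 and 2, 120 miRNAs were called (31.9%), 12 higher (3.19%) and 108 lower (28.7%), with a median log2 change of −0.29. With median-ratio scaling as well, 80 were called (21.3%), 46 higher (12.2%) and 34 lower (9.04%). Leaving out week 4 replicate 2 alone gave 71 calls (18.9%), 12 higher (3.19%) and 59 lower (15.7%), and leaving out week 4 replicate 3, week 4 replicate 4 or week 8 replicate 1 gave 0 by limma, with 59, 59 and 66 miRNAs at an unadjusted p under 0.05. The 3 called miRNAs were among the calls under median-ratio scaling and among those without week 4 replicates 1 and 2.

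**Figure D2:**
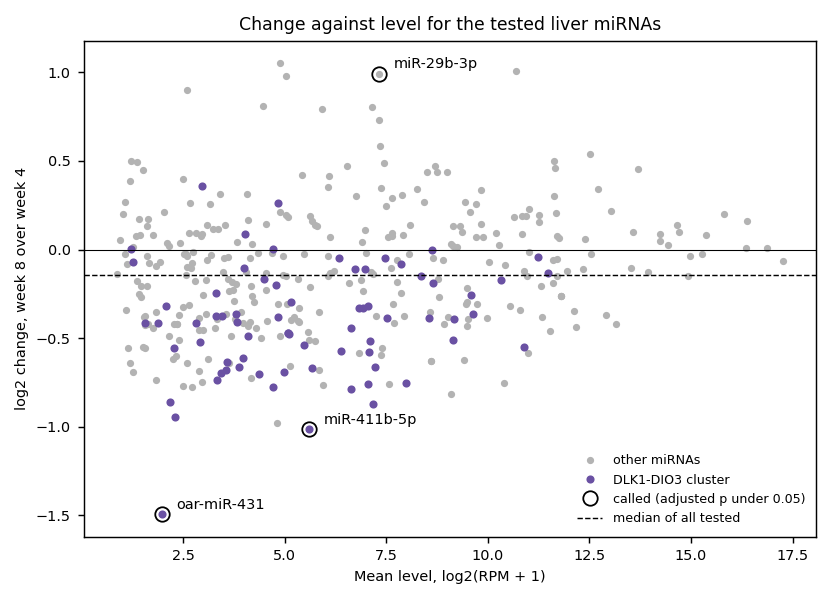
Log2 change, week 8 over week 4, against the mean level as log2(RPM + 1) for 376 miRNAs, with DLK1-DIO3 members in purple, the 3 called miRNAs circled and a dashed line at the median of −0.15. Most purple points lie below the line, from miR-377 at 0.36 down to oar-miR-431 at −1.49.

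miR-29b-3p had 79.3, 155, 93.8, 117 and 91.3 RPM in week 4 replicates 1 to 5 and 219, 184, 176, 217 and 258 RPM in week 8 replicates 1 to 5. The ages did not overlap, and the highest week 4 library was replicate 2. The means were 107 ± 30.1 and 211 ± 32.8 RPM (SD, n = 5 each), a log2 change of 0.99 ± 0.19 (standard error, adjusted p = 0.0269). It was 1.05 without week 4 replicates 1 and 2 (adjusted p = 0.00238). The call did not stand in 7 of the 10 single-library omissions. The adjusted p then lay between 0.0529 and 0.0953. Those fits left out week 4 replicates 1, 3, 4 or 5 or week 8 replicates 1, 4 or 5.

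The other arms and relatives of miR-29b-3p share its hairpin or its seed. Of the 6 tested entries of the miR-29 family, 5 had a positive log2 change (125 of 376 over all miRNAs). Of the 6, 1 was called, as higher (0.266% over all miRNAs). The family median was 0.22 against −0.15 over all miRNAs. Without week 4 replicates 1 and 2 the median was 0.08 against −0.29 over all miRNAs. With median-ratio scaling as well it was 0.38 against −0.009, and 2 were called higher, beside 12.2% of all miRNAs. miR-29a-3p, by far the most abundant of them, had 5947 ± 681 RPM at week 4 and 7547 ± 890.3 RPM at week 8 (log2 change 0.34 ± 0.11, adjusted p = 0.104). Median-ratio scaling called it as higher (0.49, adjusted p = 0.0313). Without week 4 replicates 1 and 2 its log2 change was smaller, at 0.29 (adjusted p = 0.0819). miR-29c-3p had 96.3 ± 18.5 and 119 ± 17.6 RPM (0.30 ± 0.18, adjusted p = 0.262). The 5p arms of miR-29a, miR-29b and miR-29c had changes of 0.14, −0.03 and 0.14. Among 123 hairpins with both arms tested, the log2 changes of the 2 arms differed most for miR-29b (−1.03, 5p minus 3p). The levels of its arms were 2.05 RPM for 5p and 159 RPM for 3p on average.

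oar-miR-431 was a low-abundance miRNA. It had 2.96, 3.03, 6.30, 6.21 and 5.5 RPM at week 4 and 0.24, 1.21, 0.85, 1.78 and 1.20 RPM at week 8, which stand for 25 to 60 reads and for 2 to 19 reads. The ages did not overlap, and the lowest week 4 values were those of replicates 1 and 2. The log2 change was −1.49 ± 0.26 (adjusted p = 0.0259) and −1.82 (adjusted p = 0.00238) without those replicates. The call did not stand in 4 of the 10 single-library omissions, without week 4 replicates 3, 4 or 5 or week 8 replicate 1, with adjusted p of 0.0519 to 0.0953. The size depends on the pseudocount at this level, at −2.21 with 0.1 RPM and −0.41 with 10 RPM added.

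miR-411b-5p had 46.3, 47.6, 70.7, 80.4 and 73.5 RPM at week 4 and 26.3, 26.2, 30.9, 27.0 and 43.9 RPM at week 8. The highest week 8 library was replicate 5, just below week 4 replicates 1 and 2. The means were 63.7 ± 15.7 and 30.9 ± 7.53 RPM (log2 change −1.01 ± 0.21, adjusted p = 0.0398), and leaving out week 4 replicates 1 and 2 gave −1.28 (adjusted p = 0.00238). With 10 RPM in place of 1 added before the log the adjusted p was 0.0545. The call did not stand in 7 of the 10 single-library omissions (adjusted p 0.0541 to 0.135), those without week 4 replicates 3, 4 or 5 or week 8 replicates 1, 2, 3 or 4. The close relative miR-411a-5p, whose reads may in part be shared with it, had 2393 ± 218 and 2381 ± 653 RPM (log2 change −0.04 ± 0.16, adjusted p = 0.883).

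**Figure D3:**
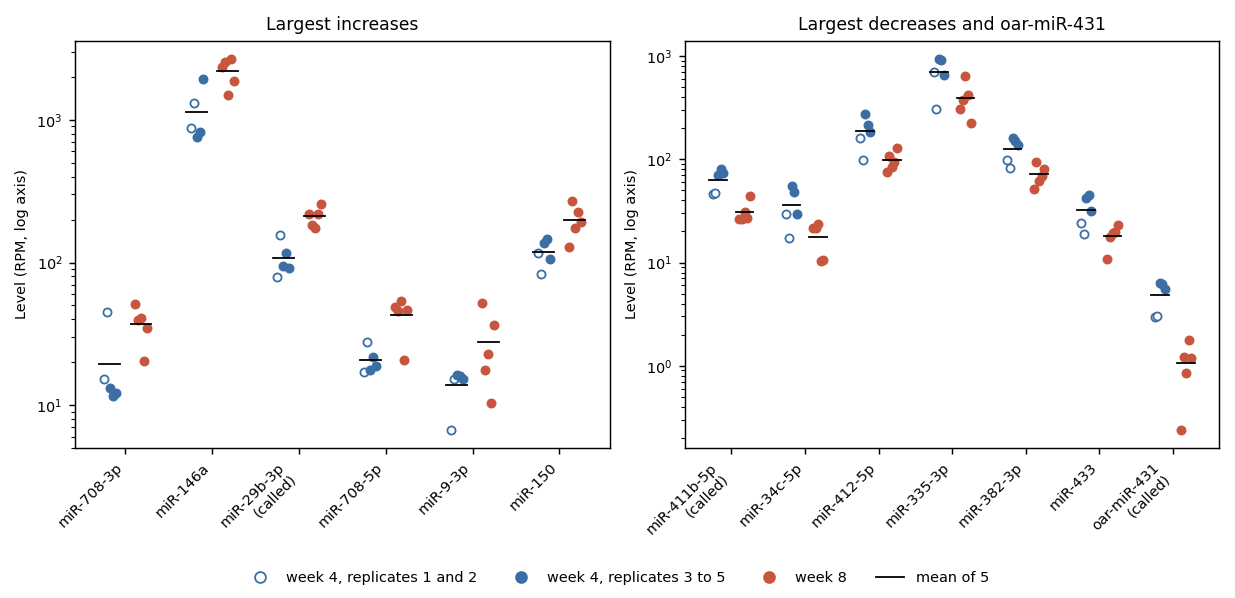
Level in RPM on a log axis of the 6 largest increases (left) and of the 6 largest decreases with oar-miR-431 (right) in each library, with open blue circles for week 4 replicates 1 and 2, filled blue for week 4 replicates 3 to 5, red for week 8 and bars at the mean of 5. miR-29b-3p, miR-411b-5p and oar-miR-431 show no overlap between ages, and the open circles often lie at the week 8 side of week 4.

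The DLK1-DIO3 cluster is an imprinted domain whose many miRNAs are made from the maternal chromosome and are known for high levels in fetal and newborn tissues. Of its 71 tested entries, 66 had a negative log2 change, 22 stood at an unadjusted p under 0.05 as lower and 0 as higher, and 2 were called, both lower (oar-miR-431 and miR-411b-5p). Over all 376 miRNAs, 251 were negative, 19.7% stood at an unadjusted p under 0.05 as lower and 0.532% were called lower. The median log2 change of the cluster was −0.41, against −0.15 over all miRNAs. Under median-ratio scaling the median was −0.27 and 6 were called lower, beside −0.003 and 2.13% over all miRNAs. Without week 4 replicates 1 and 2 the median was −0.73 and 43 were called lower, where 28.7% of all miRNAs were called lower with a median of −0.29. With median-ratio scaling as well, 20 were called lower and the median was −0.43, beside 9.04% and −0.009 over all miRNAs. Without week 4 replicate 2 alone 21 were called lower, beside 15.7% of all miRNAs. Leaving out 1 library at a time gave between 0 and 21. The summed level of the list ran from 12413 to 20745 RPM over week 4 libraries and from 10713 to 18385 RPM over week 8 libraries, so the sums overlapped.

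Several further members came close to the threshold. miR-412-5p had 160.5, 98.6, 275, 215.5 and 186 RPM at week 4 and 75.3, 108, 84.6, 93.6 and 129 RPM at week 8 (log2 change −0.87 ± 0.25, adjusted p = 0.0674). Only week 4 replicate 2 lay among the week 8 libraries. miR-382-3p went from 126 ± 34.0 to 71.7 ± 16.8 RPM (−0.79 ± 0.22, adjusted p = 0.0657) and was called under median-ratio scaling (adjusted p = 0.0313), as were miR-412-5p, miR-3958-3p and miR-127-5p. Leaving out week 4 replicates 1 and 2 gave calls for these 4, at −1.08 for miR-382-3p (adjusted p = 0.00345), −1.20 for miR-412-5p (0.00345), −1.07 for miR-3958-3p (0.00238) and −1.10 for miR-127-5p (0.00345). miR-433, from the end of the domain that lies antisense to RTL1, had 24.1, 18.8, 42.0, 45.3 and 31.7 RPM at week 4 and 10.8, 17.5, 19.3, 19.8 and 22.9 RPM at week 8 (−0.78 ± 0.26, adjusted p = 0.112). Its week 4 replicates 1 and 2 were again the lowest of their age, and without them the change was −1.12 (adjusted p = 0.00676).

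Members of the same cluster differed widely in size of change. miR-379-5p, the first miRNA of the cluster, had 2952 ± 269 RPM at week 4 and 2755 ± 711 RPM at week 8 (log2 change −0.13 ± 0.16, adjusted p = 0.631). Of other abundant members, miR-369-3p had 2289 ± 697 and 1524 ± 308 RPM (−0.55 ± 0.21, adjusted p = 0.145, and −0.88 with 0.00345 when week 4 replicates 1 and 2 were left out), and miR-127-3p had 1354 ± 342 and 1187 ± 231 RPM (−0.17). The arms of 1 hairpin could have changes of different size. miR-127-5p had a change of −0.76 and miR-127-3p one of −0.17. miR-411b-5p had −1.01 and miR-411b-3p −0.38. miR-1185-3p had −0.95 (−1.53 without the 2 libraries that stood apart, adjusted p = 0.00345) and miR-1185-5p −0.25. miR-377, miR-3959-3p and miR-485-3p had positive changes of 0.36, 0.26 and 0.09, none of them called. These arms and members were chosen after their values were seen.

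**Figure D4:**
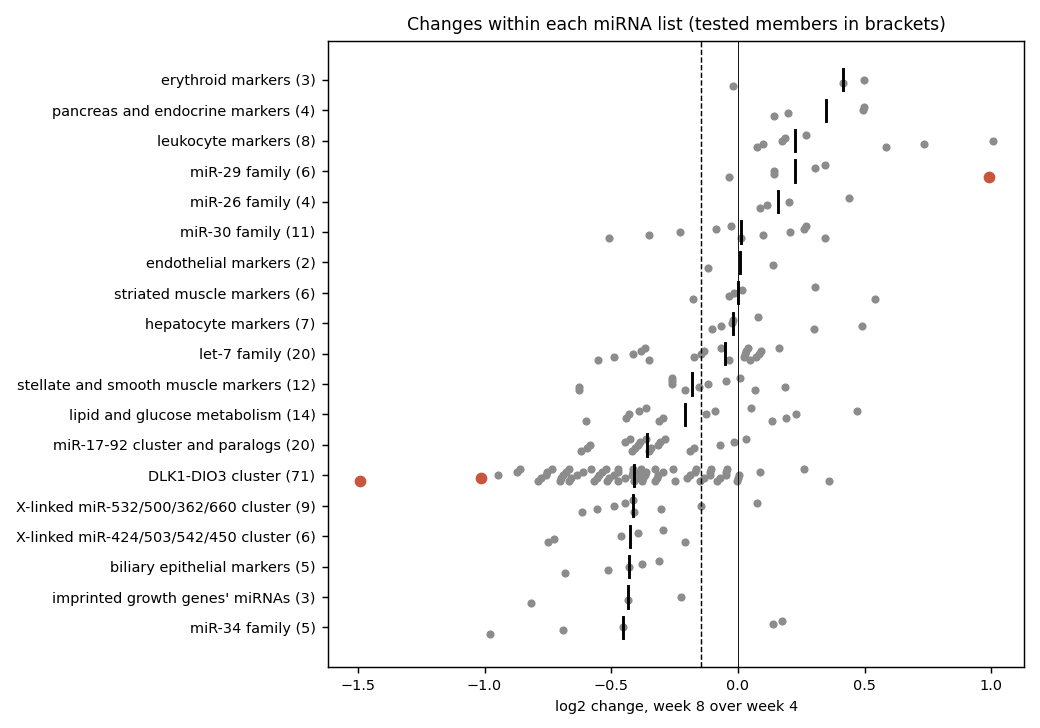
Log2 change, week 8 over week 4, of each tested miRNA (points) in 19 lists, with the number tested in brackets, black bars at list medians, called miRNAs in red, a solid line at 0 and a dashed line at the median of all 376, −0.15. The medians run from −0.45 for the miR-34 family to 0.42 for the erythroid markers.

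Other clusters among the lists also had mostly negative changes, with 0 members called in limma over the 10 libraries. Over all miRNAs, 251 of 376 were negative, 19.7% stood at an unadjusted p under 0.05 as lower and the median was −0.15. In the X-linked cluster of miR-424, miR-542 and miR-450 all 6 tested entries were negative, 3 of them at an unadjusted p under 0.05, with a median log2 change of −0.43. miR-542-3p, its most abundant entry, had 3548.8, 3840.4, 3602.2, 2929.2 and 3132.4 RPM at week 4 and 2359.8, 2236.9, 2542.3, 2385.8 and 2859.5 RPM at week 8. The ages did not overlap, and here week 4 replicates 1 and 2 lay among the high libraries (log2 change −0.46 ± 0.11, adjusted p = 0.0611, and −0.38 with 0.0254 without them). With median-ratio scaling its adjusted p was 0.217, and 0.651 (change −0.08) without those 2 libraries as well. miR-450-5p had 1693 ± 474 and 1005 ± 284 RPM (−0.75 ± 0.22, adjusted p = 0.0727, and −0.98 with 0.00925 without them). In the X-linked cluster of miR-532, miR-362, miR-500 and miR-660 8 of 9 were negative and 5 stood at an unadjusted p under 0.05 (median −0.41). miR-532-5p went from 237 ± 37.2 to 176 ± 11 RPM (−0.41 ± 0.14, adjusted p = 0.112) and miR-362-5p from 223 ± 43.4 to 178 ± 14.3 RPM (−0.31 ± 0.16, adjusted p = 0.247). Once week 4 replicates 1 and 2 were left out, miR-532-5p had −0.55 (adjusted p = 0.00919) and miR-362-5p −0.48 (adjusted p = 0.0136). In these clusters 3 of 6 and 7 of 9 members were then called lower, beside 28.7% of all miRNAs. With median-ratio scaling as well the counts were 2 of 6 (median −0.20) and 1 of 9 (median −0.25), beside 9.04% of all.

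The miR-17-92 cluster and its paralogs, known for promoting cell division, had 19 of 20 tested entries negative (251 of 376 over all miRNAs) and 0 called. Of the 20, 5 stood at an unadjusted p under 0.05 as lower (19.7% over all miRNAs). The median log2 change of the cluster and its paralogs was −0.36 (−0.15 over all miRNAs). miR-92a-3p, their most abundant entry, had 3271 ± 295 and 2901 ± 535 RPM (−0.19 ± 0.13, adjusted p = 0.367), and miR-25-3p 2089 ± 171 and 2072 ± 220.5 RPM (−0.01 ± 0.11, adjusted p = 0.944). miR-18a-5p and miR-19a, chosen after their values were seen, had changes of −0.58 and −0.59. With week 4 replicates 1 and 2 left out these were −0.96 and −0.94 (adjusted p = 0.00238 and 0.00345), 8 of the 20 were called lower and the median was −0.53, beside 28.7% and −0.29 over all miRNAs. With median-ratio scaling as well 2 of the 20 were called lower and the median was −0.26, beside 9.04% and −0.009 over all miRNAs. Under median-ratio scaling with all 10 libraries the median was −0.22 and 0 were called. Over all miRNAs the median was then −0.003, with 2.13% called lower.

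The miR-34 family, which is induced by p53, did not move as one. miR-34c-5p had 29.7, 17.4, 55.7, 48.7 and 29.5 RPM at week 4 and 21.5, 21.5, 23.5, 10.4 and 10.6 RPM at week 8, and week 4 replicate 2 lay among the week 8 libraries (log2 change −0.98 ± 0.32, adjusted p = 0.106). Leaving out week 4 replicates 1 and 2 gave −1.34 (adjusted p = 0.0118). miR-34b-5p and miR-34b-3p, which come from the same primary transcript, had −0.69 and −0.45, and −0.92 and −0.80 with those 2 libraries left out (adjusted p = 0.0448 and 0.036). miR-34a, from another gene, had 50.4 ± 18.1 and 54.4 ± 15.2 RPM (0.14 ± 0.27, adjusted p = 0.784), and without week 4 replicates 1 and 2 its change was −0.23.

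miR-335 lies within the imprinted gene MEST in human and mouse. miR-335-3p had 698, 305, 932, 918 and 662 RPM at week 4 and 308, 379.8, 646, 416 and 226 RPM at week 8 (log2 change −0.82 ± 0.31, adjusted p = 0.145), and the ages overlapped through week 4 replicate 2 alone. Leaving out week 4 replicates 1 and 2 gave −1.15 (adjusted p = 0.0128). miR-335-5p had 5245 ± 1246 and 3904 ± 1070.4 RPM (−0.43 ± 0.21, adjusted p = 0.219). The 3 tested entries of this list, with miR-483 from the IGF2 gene at −0.23, were all negative (251 of 376 over all miRNAs) and not called. Without the 2 libraries miR-483 was called as well, at −0.75 (adjusted p = 0.0497).

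Among all miRNAs, the 5 smallest p belonged to the 3 called ones, miR-340-5p and oar-miR-152. miR-340-5p had 700.4, 722, 958, 894 and 868 RPM at week 4 and 654, 552, 437, 594 and 465 RPM at week 8 (log2 change −0.62 ± 0.15, adjusted p = 0.0611). oar-miR-152, of the miR-148/152 family that targets the DNA methyltransferase DNMT1, was abundant, with 10429 ± 1029.6 RPM at week 4 and 7767 ± 591 RPM at week 8 (−0.42 ± 0.10, adjusted p = 0.0611). Neither showed overlap between the ages. Both fell short of the threshold, also under median-ratio scaling (adjusted p = 0.0656 and 0.14). Both were called without week 4 replicates 1 and 2, at −0.76 and −0.49 (adjusted p = 0.00443 and 0.00345), where the median over all miRNAs was −0.29. With median-ratio scaling as well neither was called, at −0.46 and −0.19 (adjusted p = 0.0703 and 0.22).

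The increases beside miR-29b-3p were not called. Among those the rule names, miR-708-3p had the largest, followed by miR-146a and miR-708-5p. The hairpin of miR-708 lies in an intron of the TENM4 gene in human and mouse. miR-708-5p had 17.2, 27.8, 17.8, 21.6 and 18.9 RPM at week 4 and 48.7, 45.5, 54.0, 20.7 and 46.6 RPM at week 8 (log2 change 0.98 ± 0.25, adjusted p = 0.0611). Week 8 replicate 4 alone lay within the week 4 range. miR-708-3p had 15.3, 45.02, 13.2, 11.6 and 12.2 RPM at week 4 and 51.5, 39.3, 41.0, 20.3 and 34.7 RPM at week 8 (1.05 ± 0.35, adjusted p = 0.104), and here week 4 replicate 2 reached the week 8 range. Both arms were called without week 4 replicates 1 and 2, at 1.05 for 5p (adjusted p = 0.0176) and 1.47 for 3p (adjusted p = 0.00345). miR-9-3p, a miRNA best known from neural tissue, had 6.74, 15.4, 16.4, 16.0 and 15.2 RPM at week 4 and 52.2, 17.7, 22.9, 10.4 and 36.2 RPM at week 8 (0.81 ± 0.37, adjusted p = 0.192), with a wide spread at week 8. Its change without week 4 replicates 1 and 2 was smaller, at 0.58 (adjusted p = 0.293).

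miR-146a and miR-150 belong to the leukocyte markers. miR-146a, a brake on innate immune signalling, had 871, 1321.3, 756, 816 and 1923.5 RPM at week 4 and 2344.9, 2555, 1494, 2655.7 and 1882.3 RPM at week 8 (log2 change 1.01 ± 0.25, adjusted p = 0.0611). The overlap came from week 4 replicate 5. miR-150, which mature lymphocytes express strongly, had 117, 82.9, 136, 145.5 and 106 RPM at week 4 and 129, 269, 174, 227 and 192 RPM at week 8 (0.73 ± 0.21, adjusted p = 0.0719), and week 8 replicate 1 lay within the week 4 range. All 8 tested leukocyte entries had positive changes (125 of 376 over all miRNAs). Of them 3 stood at an unadjusted p under 0.05 (6.12% higher over all miRNAs) and 0 were called, with a median of 0.23. miR-342-3p, the most abundant of the rest of the lymphoid markers, had 636 ± 81.3 and 680.4 ± 76.0 RPM (0.10 ± 0.13, adjusted p = 0.656). The summed level of the list ran from 2121.1 to 3658.3 RPM at week 4 and from 3241 to 4734.7 RPM at week 8, and its part in the result for any other miRNA was not tested. Median-ratio scaling called miR-150, miR-146a and miR-146b-5p as higher (adjusted p = 0.014, 0.0267 and 0.0336). The median of the list was 0.08 without week 4 replicates 1 and 2, against −0.29 over all miRNAs. There 1 member was called higher, miR-146a, at 1.01 (adjusted p = 0.0248), beside 3.19% of all miRNAs. The change of miR-150 was smaller there, at 0.58 (adjusted p = 0.0637). With median-ratio scaling as well the list median was 0.37 against −0.009, and 3 were called higher, beside 12.2% of all miRNAs.

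Markers of blood and of further cell types were followed in the same way. Of 3 erythroid entries, miR-451-5p, which is made without Dicer and fills red cells, had 2666 ± 821 and 3654 ± 616 RPM (log2 change 0.50 ± 0.20, adjusted p = 0.157). It was called higher under median-ratio and TMM scaling (0.64 in each, adjusted p = 0.0267 and 0.0277). Its 2 lowest libraries were week 4 replicates 1 and 2, at 1738 and 1890.0 RPM. Without them its change was 0.17, where the median over all miRNAs was −0.29. miR-144-5p, from the same transcript, had 129 ± 20.8 and 126 ± 13.8 RPM (−0.02 ± 0.16, adjusted p = 0.948). The summed erythroid level ran from 1857.2 to 3670.0 RPM at week 4 and from 3238.5 to 4744.7 RPM at week 8. With median-ratio scaling and without week 4 replicates 1 and 2, 2 of the 3 entries were called higher (12.2% over all miRNAs), with a median of 0.47.

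Of 12 stellate and smooth muscle entries, 9 were negative (251 of 376 over all miRNAs) and 0 were called (median −0.18). At an unadjusted p under 0.05 stood 5 as lower (19.7% over all miRNAs). All 5 were miR-199 entries, namely both arms of miR-199b and of miR-199c, and miR-199a-3p. miR-143-3p had 125087 ± 68525 and 115316 ± 7722 RPM (log2 change 0.01 ± 0.23, adjusted p = 0.978), and without week 4 replicates 1 and 2 it was called higher at 0.33 (adjusted p = 0.00716). miR-199a-3p, of a family tied to stellate cells, had 3884 ± 369 and 3249.6 ± 369 RPM (−0.26 ± 0.11, adjusted p = 0.167). Each arm of miR-199b carried the same values as that arm of miR-199c and the 3p pair nearly those of miR-199a-3p, so reads of these entries may be shared. The summed level of the list ran from 106790 to 266254 RPM at week 4, with replicate 2 the highest, and from 122502 to 143483 RPM at week 8. Without week 4 replicates 1 and 2, 1 entry was called higher and 2 lower (median −0.21), beside 3.19% higher and 28.7% lower over all miRNAs. With median-ratio scaling as well 4 were called higher and 0 lower (median 0.09), beside 12.2% higher and 9.04% lower over all miRNAs.

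The 5 biliary epithelial entries of the miR-200 family all had negative changes (251 of 376 over all miRNAs), with a median of −0.43 and 0 at an unadjusted p under 0.05. miR-200b had 819 ± 278 and 607 ± 183 RPM (log2 change −0.43 ± 0.24, adjusted p = 0.257), and miR-200a 582 ± 173 and 446 ± 121 RPM (−0.38 ± 0.22, adjusted p = 0.268). Their sum ran from 1109.7 to 2407.9 RPM at week 4 and from 710.4 to 1621 RPM at week 8. The endothelial miR-126-3p had 24875 ± 4453 and 27146 ± 2732 RPM (0.14 ± 0.13, adjusted p = 0.491) and miR-126-5p 4149 ± 991 and 3731 ± 197 RPM (−0.12 ± 0.15, adjusted p = 0.645), the latter called lower without week 4 replicates 1 and 2 (−0.37, adjusted p = 0.0142). Of 6 striated muscle entries 0 were called and 0 stood at an unadjusted p under 0.05. miR-1 had 4662 ± 1749 and 7020.4 ± 3290.3 RPM (0.54 ± 0.30, adjusted p = 0.255, and 0.88 with 0.0497 without those 2 libraries) and miR-133a-3p 207 ± 40.3 and 264 ± 95.7 RPM (0.31 ± 0.22, adjusted p = 0.367). Week 8 replicate 5 was the highest library for both. The 4 pancreas and endocrine entries had positive changes (125 of 376 over all miRNAs), 0 at an unadjusted p under 0.05. Among these 4 were miR-7-5p with 865 ± 45.5 and 956 ± 71.2 RPM (0.14 ± 0.11, adjusted p = 0.378) and miR-7-3p with 29.7 ± 5.83 and 33.9 ± 3.89 RPM (0.20 ± 0.18, adjusted p = 0.491).

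The bulk of the liver profile showed no call. Of 7 hepatocyte entries 0 were called and 1 stood at an unadjusted p under 0.05, as higher (6.12% over all miRNAs). Their median log2 change was −0.02, or 0.12 under median-ratio scaling. miR-122 had 170523, 114075, 178478, 188599.7 and 158983 RPM at week 4 and 152953, 136771, 182702, 156478 and 138324 RPM at week 8. The week 8 range lay inside that of week 4, and week 4 replicate 2 was the lowest library (−0.07 ± 0.13, adjusted p = 0.784). miR-194 had 39930.1 ± 5326 and 39115 ± 3387 RPM (−0.02 ± 0.10, adjusted p = 0.906) and miR-148a-3p 41153 ± 3057 and 43732 ± 5518 RPM (0.08 ± 0.10, adjusted p = 0.641). The passenger arm miR-148a-5p, named after its values were seen, showed no overlap (0.49 ± 0.15, adjusted p = 0.0797, and 0.54 with 0.0229 when week 4 replicates 1 and 2 were left out).

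The remaining miRNAs among the 10 most abundant were miR-21-5p, miR-30a-5p, miR-26a-5p, let-7f-5p, miR-101-3p and miR-30e-5p, and 0 of the 10 were called, with 1, miR-26a-5p, at an unadjusted p under 0.05. miR-21-5p, which rises in injured and dividing liver, had 79479.6 ± 14029.5 and 90353 ± 25856 RPM (log2 change 0.16 ± 0.18, adjusted p = 0.598), with week 8 replicates 2 and 5 the highest libraries at 112557 and 123808 RPM. miR-26a-5p, which is known to repress cyclins, had 53776 ± 4872 and 61719.8 ± 4452 RPM (0.20 ± 0.09, adjusted p = 0.167), and the week 4 range reached into week 8 through replicate 1 at 62346 RPM. miR-101-3p had 32912 ± 4299 and 29548 ± 2558 RPM (−0.15 ± 0.10, adjusted p = 0.358). The 10 together took 67.6% ± 2.997 of reads at week 4 and 67.6% ± 0.65 at week 8 (n = 5 each), 0.05 points apart (two-sided exact permutation test, p = 0.992, smallest possible 0.00794). By library the share was 68.0%, 72.6%, 65.5%, 66.4% and 65.4% at week 4 and 68.4%, 67.7%, 67.7%, 66.6% and 67.8% at week 8. Without week 4 replicates 1 and 2 it was 1.86 points higher at week 8 (p = 0.0179 by the exact permutation test, which cannot go lower with 56 arrangements). The libraries left out there had the highest shares of week 4, 68.0% and 72.6%, and were singled out after the data were seen. Replicate 2 stood out by miR-143-3p, which is itself part of the share. That p is therefore a description and not a test of the ages.

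The let-7 family, whose level rises when fetal tissues mature, had 0 of 20 entries called, 4 at an unadjusted p under 0.05 as lower (19.7% over all miRNAs), and a median log2 change of −0.05, or 0.09 under median-ratio scaling. Without week 4 replicates 1 and 2, 5 of the 20 were called lower, beside 28.7% of all miRNAs. With median-ratio scaling as well 3 were called higher and 0 lower, beside 12.2% and 9.04% of all. In the fit over all 25 libraries 2 were called lower, as were 21 of all 376 miRNAs. let-7f-5p had 32465 ± 4608 and 31452 ± 2116 RPM (−0.04 ± 0.11, adjusted p = 0.856), and let-7g-5p 21866 ± 2129 and 22216 ± 821 RPM (0.03 ± 0.09, adjusted p = 0.869). The miR-30 family had 6 of 11 positive (125 of 376 over all miRNAs), 3 at an unadjusted p under 0.05 (25.8% over all miRNAs) and 0 called. miR-30a-5p had 83274 ± 10619 and 83989 ± 11601 RPM (0.01 ± 0.11, adjusted p = 0.954), and miR-30e-5p 25642 ± 2443 and 27637 ± 4393 RPM (0.10 ± 0.11, adjusted p = 0.608). All 4 entries of the miR-26 family were positive (125 of 376 over all miRNAs) and not called. At an unadjusted p under 0.05 stood 2 of the 4 (6.12% higher over all miRNAs). Of this family, miR-26b-5p had 18624 ± 2021 and 19716 ± 595 RPM (0.09 ± 0.09, adjusted p = 0.552). Without week 4 replicates 1 and 2, miR-26a-5p and oar-miR-26a were called higher, at 0.25 and 0.68 (adjusted p = 0.0303 and 0.00345).

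Of 14 miRNAs known from lipid and glucose metabolism, 0 were called, 5 were positive and 9 negative, with a median log2 change of −0.21 (−0.15 over all miRNAs). At an unadjusted p under 0.05 stood 4 of them, beside 25.8% of all miRNAs. miR-27b-3p, a regulator of lipid genes, had 16325 ± 886 and 14986 ± 1420.1 RPM (−0.13 ± 0.09, adjusted p = 0.367), and miR-27a-3p 1900.0 ± 272 and 2221 ± 254 RPM (0.23 ± 0.13, adjusted p = 0.255). miR-130a-3p did not overlap between ages, at 76.2 ± 8.29 and 106 ± 11.6 RPM (0.47 ± 0.15, adjusted p = 0.0887), and was called under median-ratio scaling (adjusted p = 0.0267). miR-33a-5p, which lies in the SREBF2 gene and represses cholesterol export, had 5.02 ± 1.54 and 2.98 ± 1.21 RPM (−0.60 ± 0.24, adjusted p = 0.153). Leaving out week 4 replicates 1 and 2 gave 0.38 and −0.86 (adjusted p = 0.0497 and 0.0191) for these 2, which were named after their values were seen.

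A few abundant miRNAs outside the lists also parted without overlap, and they too were picked after their values were seen. miR-22-3p had 9670.7, 8940, 12186, 11789 and 13639 RPM at week 4 and 14269, 18190.3, 13757, 14965 and 15271.5 RPM at week 8 (log2 change 0.45 ± 0.13, adjusted p = 0.0657), and median-ratio scaling called it (0.60, adjusted p = 0.00981). miR-100-5p had 2429 ± 146 and 1652 ± 374 RPM (−0.58 ± 0.14, adjusted p = 0.0611). miR-374a-5p, an X-linked miRNA, had 2707 ± 222 and 3742 ± 529.7 RPM (0.46 ± 0.12, adjusted p = 0.0611), and miR-140-5p, best known from cartilage, 351 ± 44.6 and 484 ± 25.2 RPM (0.47 ± 0.12, adjusted p = 0.0611). These 3 were called without week 4 replicates 1 and 2, at −0.56, 0.44 and 0.45 (adjusted p = 0.0275, 0.0259 and 0.0188). miR-22-3p, which was lowest in those 2 libraries, was not called there.

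Arms of a hairpin and neighbours on a chromosome were set side by side. Of 123 hairpins with both arms tested, 89 had the same sign in both, where 251 of all 376 entries were negative, and the arms differed by a median of 0.23 on the log2 scale. Pearson's r between the arms across hairpins was 0.52, a description only, since arms share the library, its scaling and its depth. Both arms stood at an unadjusted p under 0.05 in 10 hairpins, with the same sign in all 10. Of the 376 entries 334 matched a gene by name in RefSeq's ARS1.2 annotation, and hairpins at most 10000 bases apart formed 32 groups, 11 of them with all entries of 1 sign. The group of miR-34b and miR-34c had the lowest median, −0.69, followed by miR-454 with miR-301a at −0.65, where all 3 entries were lower at an unadjusted p under 0.05. The DLK1-DIO3 hairpins formed 2 of these groups. In the one from miR-493 to miR-136, 8 of 9 entries were negative with a median of −0.57, and in the one from miR-379 to miR-656, 49 of 52 were negative with a median of −0.39. miR-451 with miR-144 had the highest median, 0.42. The lowest and highest places depended on week 4 replicates 1 and 2. Without them miR-454 with miR-301a had the lowest median, −1.02, and miR-34b with miR-34c had −0.92. The median of miR-451 with miR-144 was then 0.17, below miR-195 with miR-497 at 0.24.

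Set in the whole age series, the 2 ages stood on either side of a step for the called miRNAs. miR-29b-3p had means of 87.6, 97.9, 107, 211 and 217 RPM at 1 day, 2, 4, 8 and 12 weeks. miR-411b-5p had 89.0, 67.7, 63.7, 30.9 and 22.9 RPM and oar-miR-431 9.13, 5.40, 4.8, 1.06 and 0.96 RPM. For each of these 3 the interval from 4 to 8 weeks had a wider gap between means than the interval on either side of it, which is a description, since the miRNAs were picked from that interval. The interval from 2 to 4 weeks is also the shorter one. Counted in RPM, oar-miR-431 fell about as much between 1 day and 2 weeks, from 9.13 to 5.40 RPM, as between 4 and 8 weeks. As a ratio the fall from 4 to 8 weeks, from 4.8 to 1.06 RPM, was the larger one. oar-miR-152 had its highest mean at 4 weeks, with 8768.4, 10023, 10429, 7766.9 and 7520.8 RPM.

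**Figure D5:**
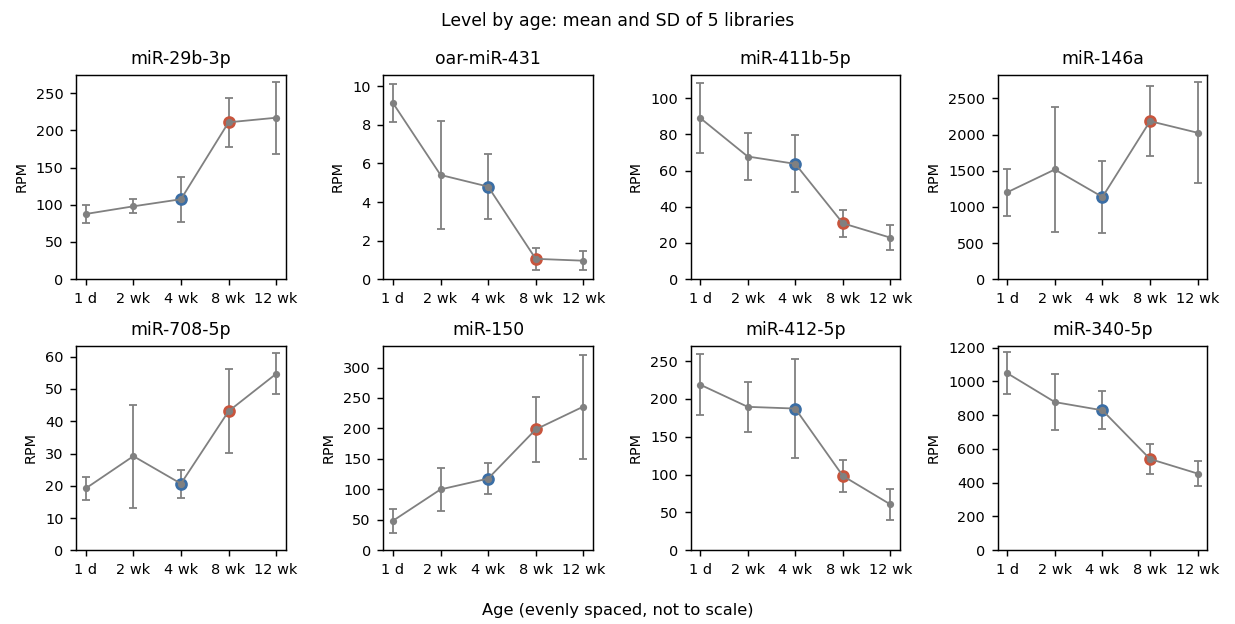
Mean ± SD of 5 libraries, in RPM, at 1 day, 2, 4, 8 and 12 weeks (ages evenly spaced, not to scale) for 8 miRNAs, with week 4 ringed in blue and week 8 in red. miR-29b-3p steps up from 107 to 211 RPM and miR-411b-5p down from 63.7 to 30.9 RPM between the ringed ages.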

How the data were processed

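Small RNA from frozen goat kid liver was measured in 5 libraries at 4 weeks and 5 at 8 weeks. The deposited values are in RPM, reads of a miRNA per 1000000 reads, scaled by the authors to 1 library total. The unit was read from the values, which fall on multiples of a single read (tolerance 0.1 read, 100% of values per library), with columns summing to 1012831 to 1016375. Per the labels' protocols, RNA was extracted with Trizol and libraries were made with a kit for stranded total RNA, and the submitters' processing notes list Bowtie 1.1.1. Not given in the sources used here are the build, adapter trimming, small RNA selection and how multiply matching reads were assigned. Mature miRNAs are of nearly equal length, so RPM was not divided by length, and near-identical or sheep-named entries can share reads.

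From these values, 376 miRNAs that reached 1 RPM in at least 5 of 10 libraries were tested with limma 3.58.1 (lmFit, eBayes with a variance trend) in R 4.3.3 on log2(RPM + 1), a scale that understates the change of low miRNAs. Only the 10 libraries of these ages entered. Called means an adjusted p under 0.05. The summed share was compared by an exact permutation test over 252 arrangements. Named miRNAs are up to 12 called increases and decreases of at least 10 RPM (filled up to 6 each with uncalled ones at an unadjusted p under 0.05), the 5 smallest p, the 10 most abundant, and the 2 most abundant of each of 19 lists. Others were chosen after their values were seen. The members and lists were chosen with earlier results of these data known. Same-numbered libraries were not paired in their deviations (correlations −0.21 to 0.05). No pair of libraries of 1 age agreed within sampling noise (smallest chi-square per degree of freedom 45.6). Alternatives were other scalings (median ratio, TMM), filters, pseudocounts, all 25 libraries, a replicate block, identical entries once and libraries left out. The code of the fit was run on simulated data with independent noise for each miRNA. That simulation had no shift shared by a whole library, so it cannot show how the fit behaves with week 4 replicates 1 and 2. Figures were drawn with matplotlib 3.10.9 in Python 3.11.15.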

Additional observations from a re-analysis of the deposited data

Results flagged for a closer look

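Among 106 groups of 5 libraries (53 measures at 2 ages), 9 held a library whose gap to its nearest neighbour took more than 0.71 of the range of the group, and chance gives about 1 group in 20. miR-143-3p reached 247259.8 RPM in week 4 replicate 2, where the other 4 libraries had 89358 to 103192 RPM. The same library had the highest miR-708-3p of week 4, 45.02 RPM against 11.6 to 15.3 RPM, and the lowest let-7g-5p, 18270.5 RPM against 22213 to 23946 RPM. Week 4 replicate 1 had the highest miR-26a-5p, 62346.11 RPM against 50675 to 53087 RPM, and the lowest miR-9-3p, 6.74 RPM against 15.2 to 16.4 RPM. Week 4 replicate 5 had the highest miR-411a-5p, 2772.99 RPM against 2258.8 to 2384.3 RPM. At week 8, replicate 4 had the lowest miR-708-5p, 20.65 RPM against 45.5 to 54.0 RPM. Week 8 replicate 3 had the highest miR-362-5p, 202.8 RPM against 167 to 175 RPM, and the lowest miR-126-5p, 3388.72 RPM against 3757.3 to 3874.6 RPM.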

How the results depend on the processing

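The 3 calls (1 higher, 2 lower) became 23 (15, 8) with median-ratio scaling, 22 (15, 7) with TMM scaling, 8 (2, 6) with no filter, 12 (5, 7) at a mean of at least 10 RPM (269 miRNAs tested, oar-miR-431 not among them), 28 (7, 21) with all 25 libraries sharing 1 spread, 2 (1, 1) with a pseudocount of 10, and 1 (0, 1), oar-miR-431, with the replicate block, which left 85 at an unadjusted p under 0.05. A pseudocount of 0.1 and identical entries counted once gave 3 each. Without week 4 replicates 1 and 2 there were 120 (12, 108). Chosen after seeing the data were median-ratio scaling without those 2 libraries, with 80 (46, 34), and setting miR-143-3p aside, with 14 (2, 12). Leaving out each library gave 0 to 71 calls, 0 to 12 higher and 0 to 59 lower, the most without week 4 replicate 2, and 0 without week 4 replicate 3 or 4 or week 8 replicate 1. The single call without week 4 replicate 5 was miR-146a, higher. The replicate block gave adjusted p of 0.0155 for oar-miR-431 and 0.0723 for miR-29b-3p and for miR-411b-5p. The numbers did not pair the libraries, and 0 of 5 libraries correlated best with their own number. The share of the 10 most abundant differed by 0.05 points, by −0.505 to 1.30 points leaving out each library (−0.466 without week 4 replicate 3, −0.252 without replicate 4, −0.142 without week 8 replicate 1), and by 1.86 points without week 4 replicates 1 and 2. Apart from what each setting leaves out, the cause of these moves was not tested. Of the 52 named miRNAs, 0 changed direction as a call. Count tests on recovered reads were not run. All values fell on multiples of a single read, but each library held too few low values for a separate check of the recovered counts. The read numbers given above rest on those multiples. Low miRNAs such as oar-miR-431 rest on few reads.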
